A study of Mus musculus and Homo sapiens with 34 samples.

Results

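The genes described here are 9 members of fibroblast growth factor (FGF) signalling, taken by symbol from every deposited count table: the receptors Fgfr1, Fgfr2, Fgfr3 and Fgfr4, the ligands Fgf1 and Fgf2, the secreted carrier Fgfbp1, and the docking proteins Frs2 and Frs3. They were chosen by name out of 48431 gene identifiers in the 7 tables, with upper-case symbols in human. All 9 were listed in the tables of 3311, H358 and H1651 with trametinib, and 8 in each of the other tables, where Fgfr1 (the organoid tables) or FGF1 (the doxycycline table) had no row. The 8 members tested in a table were those that passed its filter on low counts.

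FGF receptors are tyrosine kinases at the cell surface that bind FGF ligands together with heparan sulfate. The docking proteins FRS2 and FRS3 attach to the activated receptor and recruit GRB2, SOS and SHP2, which feed the RAF, MEK and ERK cascade. ERK in turn induces ETV transcription factors and the feedback inhibitors of the Sprouty, SPRED and DUSP families. In the lung, FGFR2 in the epithelium receives FGF signals from the mesenchyme that drive branching and maintain alveolar cells, and FGFBP1 releases FGFs from the heparan sulfate of the matrix.

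The study sequenced poly(A) RNA of 34 cultures in 17 groups of 2 replicates, 22 libraries from mouse lung cultures and 12 from human lung adenocarcinoma lines. The alleles that the mouse cultures share include p53frt and Rosa-FSF-CreERT2, deleted and switched on by Flp recombinase, of which the last encodes a Cre that tamoxifen activates. The 3154 organoids also carry Hnf4aflox, and the 1027B organoids and 3311 cells carry Foxa1flox and Foxa2flox. The labels name no tamoxifen for 1027B or 3311 and do not say whether their floxed alleles had been deleted. With vehicle Foxa1 and Foxa2 stood at 67.9 ± 4.97 and 121.8 ± 5.33 CPM (counts scaled to library size within a table) in 1027B and at 30.1 ± 2.95 and 64.6 ± 0.969 CPM in 3311 (SD, n = 2). HNF4A is a transcription factor of liver, gut and the gastric-like state of some lung tumours.

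The 3311 cells received 50 nM trametinib, an inhibitor of MEK1 and MEK2, or vehicle for 48 hours. The 1027B organoids received 10 nM trametinib, 20 nM MRTX1133, a second inhibitor, or vehicle for 48 hours. The human lines H358 and H1651 received 20 nM trametinib or vehicle for 48 hours. The 3154 organoids were given 4-hydroxytamoxifen (4OHT), labelled 2 mM, or ethanol and harvested 2 weeks later. In a separate 48-hour experiment 3154 organoids had ethanol or 4OHT, each with vehicle or 3 nM MRTX1133. Hnf4a deletion below stands for 4OHT against ethanol. No group had 4OHT without Hnf4aflox, so effects of 4OHT or of active Cre cannot be told apart from loss of Hnf4a. H1651 cells with a doxycycline-driven lentiviral HNF4A construct were kept for 7 days with 1 µg/mL doxycycline or without it. No cells without the construct had doxycycline, so its own effect cannot be told apart from that of HNF4A. The labels name 1 culture of each kind and do not say whether replicates were separate cultures, so the spread measured is that between these libraries and may be technical.

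Total counts ran from 19692517 to 45284286 per library, and 3 counts, taken as the floor, corresponded to 0.0645 to 0.163 CPM. Replicates differed by more than counting noise in every group. Hnf4a, the labelled target, fell from 315–427 CPM to 53.5–68.0 CPM at 2 weeks and from 221–230 CPM to 49.4–50.4 CPM in the 48-hour experiment, and HNF4A rose from 35.9–47.1 to 94.35–96.8 CPM with doxycycline. Hnf4a was also called lower in edgeR with trametinib in 1027B (from 446–471 to 200–254 CPM, log2 -1.01), with MRTX1133 there (242.5–297.5 CPM, -0.76) and with MRTX1133 among the 4OHT groups of 3154 (from 49.4–50.4 to 25.3–29.8 CPM, -0.86), and not called lower with MRTX1133 among the ethanol groups (-0.31) or with trametinib in 3311 (-0.39) or H1651 (-0.07). HNF4A was at 0 CPM in every H358 library and at 33.3–58.9 CPM in the H1651 vehicle and trametinib libraries. The part of the Hnf4a level in the members' responses to the inhibitors was not tested. Epithelial markers (5 of 5 listed in every table) summed to 3601–10910 CPM. Of the 8 fibroblast markers the organoid tables listed 1 or 2, at 0.115–1.70 CPM in sum. In these bulk samples fewer cells of a type and less RNA per cell cannot be told apart.

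In the GENCODE annotation of GRCm38, Fgfr2 (ENSMUSG00000030849) is at chr7:130162451-133123350 on the minus strand, Fgfr3 (ENSMUSG00000054252) at chr5:33721674-33737068 on the plus strand and Fgfr4 (ENSMUSG00000005320) at chr13:55152640-55168759 on the plus strand. Fgfbp1 (ENSMUSG00000048373) is at chr5:43978858-43981779 on the minus strand. Exons of an opposite-strand gene overlap 13.9% of the Fgfr3 exon bases, 9.44% of those of Fgf2 and 16.3% of those of Frs3. Exons of another gene on the same strand overlap 3.04% of the Fgfr2 exon bases, 3.76% of those of Fgf2 and 2.21% of those of Frs3, and strand does not separate those reads. The library kit keeps strand, and the strand setting of the counting is not given in the sources used here, so reads of the opposite-strand partners may be included too.

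RefSeq (GRCm38.p6) gave an upstream sequence for 7 of the 9 mouse genes. The 250 bases before a RefSeq start, for Fgfr3 the first of those given, are shown for 3 receptors and the carrier, since Fgfr2 and Fgfr3 were called higher and Fgfr4 and Fgfbp1 lower under the inhibitors. They are written along the gene, in lower case, with matches to the searched motifs in capitals. The windows are chr7:130266809-130267058 (minus strand) for Fgfr2, chr5:33721474-33721723 (plus strand) for Fgfr3, chr13:55152568-55152817 (plus strand) for Fgfr4 and chr5:43981800-43982049 (minus strand) for Fgfbp1. These starts are not the first of the GENCODE annotation for the receptors. The RefSeq start lies 50 bases downstream of the first GENCODE start for Fgfr3, at another GENCODE start, 178 bases downstream for Fgfr4, and 2856542 bases downstream for Fgfr2, where the nearest GENCODE start is 545 bases away. For Fgfbp1 it lies 20 bases before the first.
Fgfr2: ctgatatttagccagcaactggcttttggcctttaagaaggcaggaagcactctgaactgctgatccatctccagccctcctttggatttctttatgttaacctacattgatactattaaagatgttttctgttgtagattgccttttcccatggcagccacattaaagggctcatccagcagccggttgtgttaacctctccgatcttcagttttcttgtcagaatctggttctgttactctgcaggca
Fgfr3: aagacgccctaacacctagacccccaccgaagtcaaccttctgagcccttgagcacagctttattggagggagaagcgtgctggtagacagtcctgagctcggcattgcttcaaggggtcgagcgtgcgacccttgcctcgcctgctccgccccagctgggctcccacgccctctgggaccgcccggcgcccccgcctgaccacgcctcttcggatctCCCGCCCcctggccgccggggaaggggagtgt
Fgfr4: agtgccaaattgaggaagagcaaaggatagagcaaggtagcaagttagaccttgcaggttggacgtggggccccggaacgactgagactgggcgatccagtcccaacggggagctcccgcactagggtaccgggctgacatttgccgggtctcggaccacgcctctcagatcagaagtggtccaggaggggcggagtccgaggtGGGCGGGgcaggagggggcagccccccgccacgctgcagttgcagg
Fgfbp1: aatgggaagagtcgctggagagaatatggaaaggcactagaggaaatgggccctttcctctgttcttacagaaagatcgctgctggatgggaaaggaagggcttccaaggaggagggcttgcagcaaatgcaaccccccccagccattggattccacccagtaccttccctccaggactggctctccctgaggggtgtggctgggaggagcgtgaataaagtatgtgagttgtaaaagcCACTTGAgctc
The motifs searched on both strands were AP-1 (TGANTCA), ETS (CCGGAAG), HNF4 (CAAAGNCCA), FOXA (TGTTTAC), NKX2-1 (CACTTGA), SP and KLF (GGGCGGG) and the TATA box (TATAAA). The Fgfr3 window holds the SP and KLF letters on the reverse strand 32 to 26 bases before the start, and the Fgfr4 window holds them 46 to 40 bases before it. These letters occur in 23.4% of 32851 mouse upstream windows. The Fgfbp1 window holds the NKX2-1 letters 11 to 5 bases before its start, a match present in 2.68% of all windows. The Fgfr2 window holds none of the 7 motifs and is 44.0% GC, against 66.8% for Fgfr3, 64.0% for Fgfr4, 53.6% for Fgfbp1 and a median of 52.4% over all windows. These matches describe letters only.

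Each comparison was fitted with the quasi-likelihood test of edgeR over every gene that passed the filter, and "called" means a Benjamini-Hochberg adjusted p under 0.05. Trametinib called 4 of 8 tested members in 3311, 2 higher and 2 lower, where 39.0% of all genes were called (19.4% higher, 19.6% lower). In 1027B it called 4 of 8, 2 higher and 2 lower, against 26.7% of all genes (13.5% higher, 13.2% lower), and with the replicate number as a block 6 of 8, 3 in each direction, against 44.9% of all genes (21.9% higher, 23.0% lower). In H358 it called 6 of 8, 4 higher and 2 lower, against 46.8% (23.5% higher, 23.2% lower). In H1651 trametinib called 0 of 8 members and 0% of all genes in edgeR, where 2 members and 597 genes had an unadjusted p under 0.05 and DESeq2 called 1 member and 47 genes. With the replicate number as a block it called 4 of 8 members there, against 1881 of 18277 genes. Deviations of the same-numbered libraries of this line correlated at 0.623.

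MRTX1133 called 3 of 8 members in 1027B, 2 higher and 1 lower, against 6.27% of all genes (3.01% higher, 3.26% lower). The 1027B replicate numbers were taken to pair the samples, and with the block it called 5 of 8, 2 higher and 3 lower, against 24.1% of all genes (11.4% higher, 12.7% lower). In 3154 organoids with 4OHT it called 2 of 8, both lower, against 4.64% (2.10% higher, 2.54% lower). With only those 2 groups fitted it called 6 of 8, against 3932 of 14847 genes. With ethanol edgeR called 0 of 8, against 0.349% of all genes (0.317% higher, 0.0323% lower), and there 6 members and 1820 genes had an unadjusted p under 0.05 and DESeq2 called 3 members and 319 genes.

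Hnf4a deletion called 1 of 8 members at 2 weeks, lower, against 9.81% of all genes (4.03% higher, 5.78% lower). In the 48-hour vehicle groups it called 5 of 8, 3 higher and 2 lower, against 31.0% (15.3% higher, 15.7% lower). In the 48-hour MRTX1133 groups it called 3 of 8, 1 higher and 2 lower, against 27.7% (13.2% higher, 14.5% lower). Doxycycline called 1 of 8 in H1651, higher, against 1.42% (1.04% higher, 0.386% lower). In H358 and 3311 many genes of every kind were called, so the members' counts there are read against those shares and single out nothing. The median log2 change of the tested members was 0.071 under trametinib in 1027B, -0.17 in 3311 and 0.55 in H358, beside -0.012, 0.0081 and 0.015 over all genes, with members called in both directions in each. Leaving out 1 library, reported below where it ends or makes a call, leaves 1 arm with a single library whose spread is taken from the others.

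**Figure D1:**
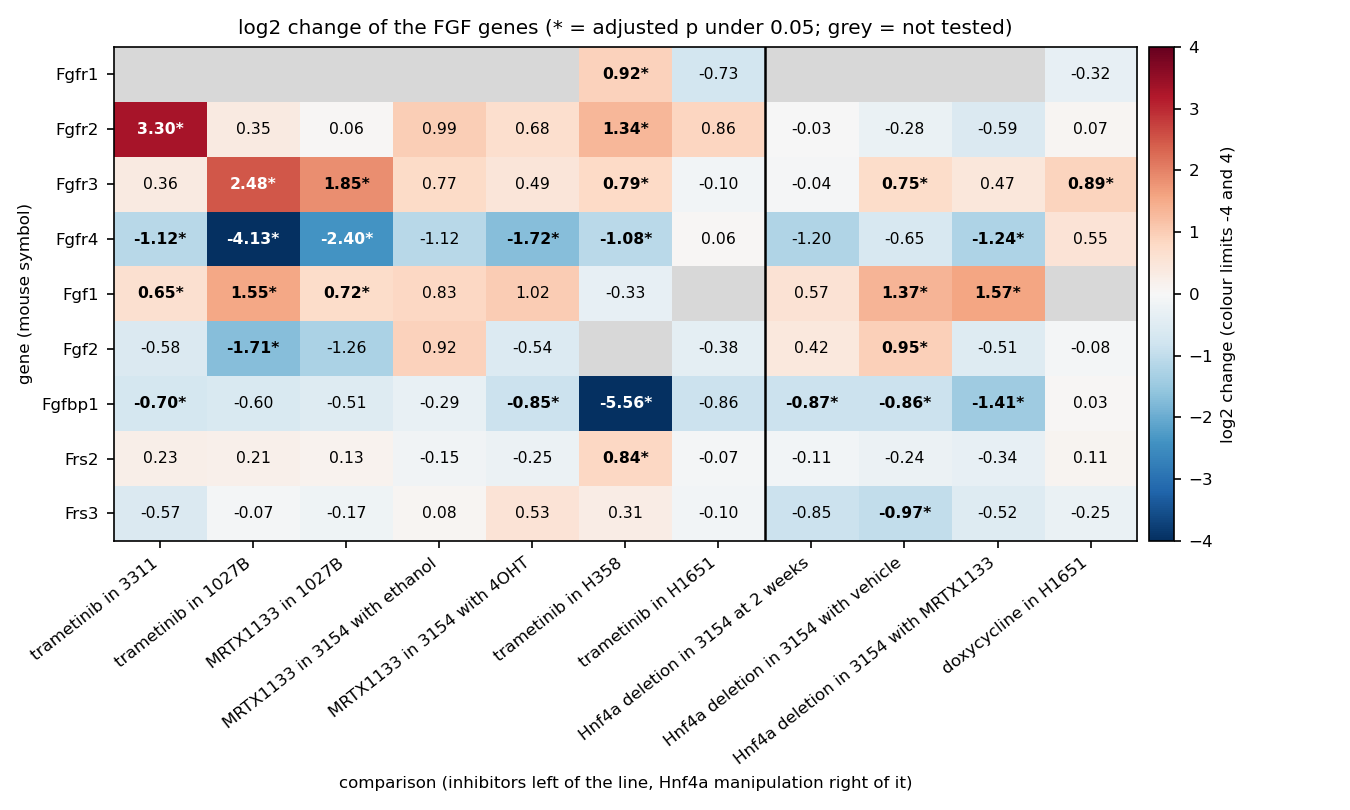
Log2 change of each gene (rows, mouse symbols) in 11 comparisons (columns) with the matching control; colour runs from -4 to 4, stars mark adjusted p under 0.05 and grey cells were not tested. Fgfr4 was lower and Fgfr3 or Fgfr2 higher with trametinib in 3311, 1027B and H358, while Frs2 was called in H358 alone of the 11 columns.

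Read per kilobase of exon, the order of the mouse receptors by mean level differed between vehicle and inhibitor groups. In 3311 with vehicle Fgfr4 was highest at 14.2 ± 1.97 CPM per kb (SD, n = 2), followed by Fgfr2 at 1.64 ± 0.588, Fgfr3 at 0.107 ± 0.0175 and Fgfr1 at 0.0238 ± 0.0177. With trametinib Fgfr2 stood at 16.05 ± 0.327 CPM per kb, above Fgfr4 at 6.53 ± 0.606. The libraries of the first-ranked receptor did not overlap with those of the next in either group.

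In 1027B with vehicle Fgfr2 stood at 5.23 ± 0.561 CPM per kb, Fgfr4 at 3.41 ± 1.10 and Fgfr3 at 1.71 ± 0.367. With trametinib Fgfr3 was at 9.52 ± 0.996, Fgfr2 at 6.65 ± 0.714 and Fgfr4 at 0.193 ± 0.0119 CPM per kb. With MRTX1133 Fgfr3 was at 6.16 ± 0.318, Fgfr2 at 5.45 ± 0.125 and Fgfr4 at 0.640 ± 0.0889 CPM per kb. The libraries of neighbouring receptors did not overlap in any of the 3 groups, and Fgfr4 was the lowest of the 3 receptors in both treated groups.

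In the 48-hour 3154 organoids with ethanol Fgfr3 (4.38 ± 0.494 CPM per kb) and Fgfr4 (3.61 ± 0.711) lay within their libraries' ranges of each other, since the higher Fgfr4 library, at 4.11, exceeded the lower Fgfr3 library, at 4.03. Fgfr3 had the highest mean of the receptors in all 4 groups of that experiment, vehicle included. With ethanol and MRTX1133 Fgfr3 was at 7.49 ± 2.03, Fgfr2 at 3.84 ± 1.25 and Fgfr4 at 1.66 ± 0.530 CPM per kb, and with 4OHT alone Fgfr3 was at 7.36 ± 0.0829, Fgfr4 at 2.31 ± 0.430 and Fgfr2 at 1.59 ± 0.303. With 4OHT and MRTX1133 together Fgfr3 stood at 10.35 ± 0.335, Fgfr2 at 2.55 ± 0.562 and Fgfr4 at 0.700 ± 0.0450 CPM per kb. The means of Fgfr2 and Fgfr4 thus changed places with MRTX1133 in both arms. Fgfbp1 was the most abundant member per kb in 3154 with ethanol, at 124.7 ± 13.0 CPM per kb at 2 weeks and 111.4 ± 4.49 in the 48-hour experiment. Exon lengths came from a GENCODE annotation of GRCm38 that may differ from the one used for counting.

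Fgfr2, the receptor of lung epithelium, rose with trametinib in 3311 cells and in H358. In 3311 its level was 12.6 and 21.2 CPM with vehicle and 168.2 and 163.4 CPM with trametinib, a log2 change of 3.30 ± 0.25 (SE; edgeR adjusted p = 0.000431). The groups lay far apart, and the treated libraries agreed closely with each other. In H358, FGFR2 was at 9.92 and 10.7 CPM with vehicle and 27.7 and 24.4 CPM with trametinib, a log2 change of 1.34 ± 0.141 (edgeR adjusted p = 0.000198). All treated libraries were above all vehicle libraries in both lines.

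Lung lineage markers (5 of 6 listed) moved with the Fgfr2 change in 3311, from 4555–5212 CPM in sum with vehicle to 593–672 CPM with trametinib, mainly through Sftpb. Of them 1 was called higher and 1 lower. Fibroblast markers (5 of 8 listed) summed to 21.5–26.25 CPM with vehicle and 17.3–17.5 CPM with trametinib, with Col1a1 called higher and Pdgfra lower. The leukocyte markers listed there, Cd68 and Ptprc, summed to 4.06–4.87 and 0.951–1.54 CPM, with Ptprc at 0 in all 4 libraries. Their part in the Fgfr2 result was not tested.

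In H1651 FGFR2 was also higher in both trametinib libraries (90.7 and 85.4 CPM) than in both vehicle libraries (55.1 and 42.05 CPM). That log2 difference of 0.86 ± 0.149 was not called in the fit without a replicate block (edgeR adjusted p = 0.999), and it was called without vehicle replicate 1 (1.065). With the replicate number as a block 1881 of 18277 genes were called in that comparison, against 0 without it. In 1027B Fgfr2 was at 49.9 and 58.1 CPM with vehicle, 73.9 and 63.5 CPM with trametinib and 55.4 and 57.2 CPM with MRTX1133, so the MRTX1133 libraries lay between the vehicle libraries. The trametinib difference of 0.35 ± 0.126 was not called (edgeR adjusted p = 0.0846). With the replicate number as a block it was called (0.35, adjusted p = 0.0315, range over 11 alternatives 0.0315 to 0.376).

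MRTX1133 left Fgfr2 uncalled in 3154: it was at 26.5 and 13.4 CPM with ethanol, 48.8 and 30.5 with ethanol and MRTX1133, 18.6 and 14.2 with 4OHT, and 30.4 and 22.2 with both. The levels were higher with the drug in each arm, by 0.99 ± 0.353 and 0.68 ± 0.354 in log2 (edgeR adjusted p = 0.332 and 0.329), beside a wide spread of the ethanol libraries. The first difference was 1.57 and 0.58 without ethanol vehicle replicate 1 and 2 and 0.59 without ethanol with MRTX1133 replicate 1, and the second was 0.44 without 4OHT with MRTX1133 replicate 1. Hnf4a deletion gave a log2 difference of -0.03 ± 0.257 at 2 weeks, where Fgfr2 was at 20.4 and 33.0 CPM with ethanol and 27.9 and 24.4 with 4OHT, with overlapping groups. With doxycycline in H1651 FGFR2 was at 24.3 and 21.45 CPM against 22.8 and 21.0 CPM, with a 0.07 ± 0.11 difference.

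**Figure D2:**
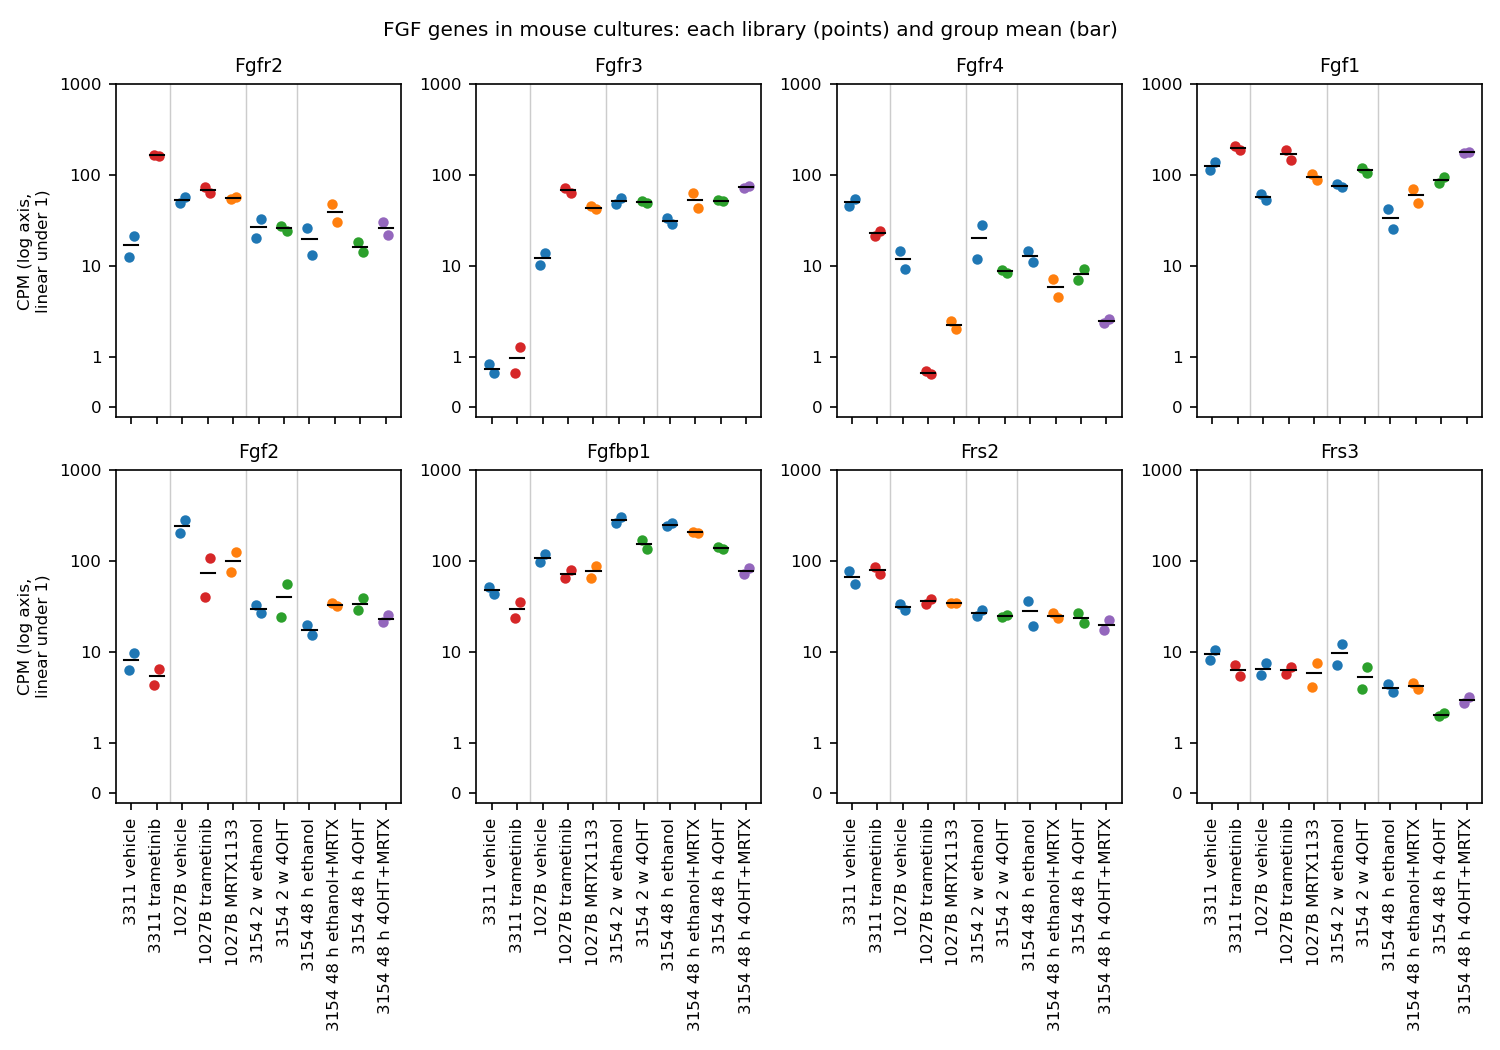
Level of 8 genes (panels) in each mouse library (points; CPM on a log axis that is linear under 1) with the mean of the 2 libraries of a group (bar); colours mark vehicle or ethanol (blue), trametinib (red), MRTX1133 (orange), 4OHT (green) and 4OHT with MRTX1133 (purple), and grey lines separate tables that were scaled separately. Fgfr2 was at 168.2 and 163.4 CPM in 3311 with trametinib, Fgfr3 stayed near 1 CPM in 3311, and Fgfr4 was under 1 CPM in 1027B with trametinib.

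Fgfr3 rose with both inhibitors in 1027B organoids. It stood at 10.4 and 14.1 CPM with vehicle, 73.2 and 63.1 CPM with trametinib and 45.7 and 42.5 CPM with MRTX1133. The 3 groups did not overlap, and the log2 changes were 2.48 ± 0.175 with trametinib (edgeR adjusted p = 0.000653) and 1.85 ± 0.173 with MRTX1133 (edgeR adjusted p = 0.00567). Both comparisons share the vehicle libraries. Both calls held without any 1 library.

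In 3311 Fgfr3 was low, at 17 to 34 counts a library, above the floor of 3. It stood at 0.855 and 0.677 CPM with vehicle and 0.681 and 1.29 CPM with trametinib, with overlapping groups (0.36 ± 0.502, edgeR adjusted p = 0.6). The trametinib doses of 3311 and 1027B differ (50 nM and 10 nM), and the difference between the responses of these cultures was not tested, since they came from separate tables and differ in culture form. Lung lineage markers in 1027B (6 of 6 listed) summed to 6656–10690 CPM with vehicle, 2812–3298 with trametinib and 3487–5106 with MRTX1133. Trametinib lowered 1 of them, Sftpb, and raised 4, while MRTX1133 raised 1 and lowered 0 in edgeR. Leukocyte markers (3 of 5 listed) summed to 7.47–7.80 CPM with vehicle, 4.32–4.34 with trametinib and 4.835–4.90 with MRTX1133, and Ptprc was called lower with trametinib. Of the epithelial markers trametinib raised Cdh1 and lowered Krt19. The part of these markers in the 1027B results was not tested.

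In the 48-hour 3154 organoids Fgfr3 rose with Hnf4a deletion, from 33.9 and 28.9 CPM to 53.1 and 52.3 CPM, a log2 change of 0.75 ± 0.191 (edgeR adjusted p = 0.0208). The call was lost without 4OHT vehicle replicate 1 (0.73, adjusted p = 0.109) or 2 (0.76, 0.105) and without ethanol vehicle replicate 2 (0.63, 0.0517). With MRTX1133 present Fgfr3 was at 63.9 and 43.4 CPM with ethanol and 72.4 and 75.8 CPM with 4OHT, a difference of 0.47 ± 0.189 that was not called (edgeR adjusted p = 0.103) unless ethanol with MRTX1133 replicate 1 was left out (0.78, 0.0281), and was 0.21 without replicate 2 of that group. MRTX1133 itself gave uncalled differences of 0.77 ± 0.191 with ethanol (edgeR adjusted p = 0.177; DESeq2 0.0467; 0.0467 to 0.889 over 11 alternatives; 0.44 in log2 without ethanol with MRTX1133 replicate 1) and 0.49 ± 0.189 with 4OHT (edgeR adjusted p = 0.19). At 2 weeks Fgfr3 was at 48.4 and 55.6 CPM with ethanol and 52.0 and 48.9 CPM with 4OHT, so that groups overlapped (-0.04 ± 0.14).

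FGFR3 was called higher with doxycycline in H1651, where HNF4A also rose. It was at 15.4 and 16.7 CPM without doxycycline and 29.2 and 30.2 CPM with it, a log2 change of 0.89 ± 0.0995 (edgeR adjusted p = 0.0122). The replicates lay close together and the groups well apart. The FGFR4 difference there, described with that receptor, lay near the threshold. Fibroblast markers (8 of 8 listed) summed to 664–759 CPM without and 413.5–456 CPM with doxycycline, and epithelial markers to 4420–4422 and 5716–6204 CPM, and their part in the FGFR3 result was not tested.

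Trametinib raised FGFR3 in H358 from 9.51 and 13.6 CPM to 21.5 and 18.4 CPM (0.79 ± 0.193, edgeR adjusted p = 0.0105). That FGFR3 call was lost without vehicle replicate 1 (0.52, adjusted p = 0.0843). In H1651 the trametinib libraries, at 14.9 and 25.8 CPM, overlapped with the vehicle libraries, at 17.9 and 25.7 CPM.

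Fgfr4, the receptor of the bile-acid signal FGF19 (Fgf15 in mouse) in liver, was lower with the inhibitors in every mouse culture and in H358. The largest fall was in 1027B, from 14.8 and 9.32 CPM with vehicle to 0.712 and 0.653 CPM with trametinib, or 5.66% of the vehicle mean. Its log2 change was -4.13 ± 0.346 (edgeR adjusted p = 0.000958). With MRTX1133 Fgfr4 was at 2.49 and 2.04 CPM, or 18.8% of the vehicle mean (-2.40 ± 0.303, edgeR adjusted p = 0.0111). The counts behind the trametinib values were 16 and 14, above the floor of 3.

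Trametinib lowered Fgfr4 in 3311 from 45.4 and 55.25 CPM to 21.6 and 24.65 CPM (-1.12 ± 0.167, edgeR adjusted p = 0.00321) and FGFR4 in H358 from 13.0 and 12.5 CPM to 5.26 and 6.91 CPM (-1.08 ± 0.184, edgeR adjusted p = 0.00203). In these lines 46.0% and 47.8% of the vehicle level was left, and the groups did not overlap. The trametinib calls in 3311, 1027B and H358 held without any 1 library. The MRTX1133 call in 1027B was lost without MRTX1133 replicate 1 (-2.56, adjusted p = 0.0534) or replicate 2 (-2.26, adjusted p = 0.0642). In H1651 FGFR4 was at 64.95 and 54.7 CPM with vehicle and 68.3 and 56.6 CPM with trametinib, with overlapping groups (0.06 ± 0.141).

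In the 48-hour 3154 organoids Fgfr4 stood at 14.6 and 10.99 CPM with ethanol, 7.20 and 4.54 with ethanol and MRTX1133, 7.09 and 9.24 with 4OHT, and 2.37 and 2.59 with both. The doubly treated libraries were the lowest. MRTX1133 lowered it among the 4OHT groups (-1.72 ± 0.282, edgeR adjusted p = 0.0234), a call lost in all 4 fits that left out 1 of those libraries (adjusted p 0.127 to 0.242). Among the ethanol groups the difference of -1.12 ± 0.264 was not called (edgeR adjusted p = 0.154; DESeq2 0.0159; 0.0159 to 0.708 over 11 alternatives).

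Hnf4a deletion lowered Fgfr4 in the presence of MRTX1133 (-1.24 ± 0.284, edgeR adjusted p = 0.0149). Leaving out 4OHT with MRTX1133 replicate 1 (-1.18, adjusted p = 0.0971) or 2 (-1.31, 0.0785), or ethanol with MRTX1133 replicate 1 (-0.86, 0.0888), ended the Fgfr4 call. With vehicle the deletion difference of -0.65 ± 0.26 was not called (edgeR adjusted p = 0.0945), except without ethanol vehicle replicate 2 (-0.84, 0.0414). At 2 weeks Fgfr4 was at 11.9 and 28.7 CPM with ethanol and 9.13 and 8.43 CPM with 4OHT. That difference of -1.20 ± 0.417 was not called (edgeR adjusted p = 0.129), was called without ethanol replicate 1, the lower of the 2 (-1.72, adjusted p = 0.00101), and was -0.44, not called, without replicate 2, the library at 28.7 CPM. FGFR4 was higher with doxycycline in H1651, at 103.0 and 95.1 CPM against 74.3 and 60.85 CPM. This 0.55 ± 0.107 difference was not called (edgeR adjusted p = 0.0664), and was called without doxycycline replicate 2 (0.61, 0.0227) or no-doxycycline replicate 1 (0.70, 0.00689).

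Fgfr1, the receptor of mesenchyme and of many dedifferentiated tumour cells, was near the floor in 3311 and present in the human lines. In 3311 it had 3 and 9 counts with vehicle and 1 and 6 with trametinib, at most 0.358 CPM, too few to test. The 3 organoid tables have no Fgfr1 row, so its level there was not analysed here. In H358 FGFR1 rose from 7.23 and 7.55 CPM to 15.3 and 12.6 CPM with trametinib (0.92 ± 0.166, edgeR adjusted p = 0.00266). In H1651 it was at 23.2 and 35.7 CPM with vehicle and 14.2 and 21.3 CPM with trametinib, lower in both same-numbered pairs. The difference of -0.73 ± 0.285 was not called in the fit without a replicate block (edgeR adjusted p = 0.999), except without vehicle replicate 1 (-1.01). It was -0.38 without vehicle replicate 2 and -0.46 without trametinib replicate 1, both uncalled. With doxycycline FGFR1 was at 30.6 and 38.8 CPM against 38.2 and 48.5 CPM, with overlapping groups (-0.32 ± 0.15, -0.50 to -0.14 with 1 library left out).

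Fgf1, a ligand that binds all FGF receptors and lacks a classical signal peptide, was higher in the inhibitor groups of every mouse culture. In 1027B it rose from 62.4 and 53.5 CPM to 191.1 and 148.6 CPM with trametinib (1.55 ± 0.161, edgeR adjusted p = 0.00161) and to 103.2 and 87.7 CPM with MRTX1133 (0.72 ± 0.159, edgeR adjusted p = 0.0474). All 3 groups stood apart. The MRTX1133 call was lost in each of the 4 fits that left out 1 of its libraries (adjusted p 0.0944 to 0.22).

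In 3311 Fgf1 rose from 114.5 and 139.1 CPM to 207.9 and 191.3 CPM (0.65 ± 0.151, edgeR adjusted p = 0.0144). Without vehicle replicate 1 (0.52, adjusted p = 0.0536) or trametinib replicate 1 (0.59, 0.0674) the call was lost. The Fgf1 response to MRTX1133 in 3154 was not called: 42.4 and 25.9 CPM with ethanol went with 71.3 and 49.9 CPM with MRTX1133 (0.83 ± 0.254, edgeR adjusted p = 0.266; 0.51 without ethanol vehicle replicate 2 and 0.52 without ethanol with MRTX1133 replicate 1), and 81.5 and 95.6 CPM with 4OHT went with 176.5 and 182.6 CPM (1.02 ± 0.251, edgeR adjusted p = 0.0625).

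Hnf4a deletion raised Fgf1 in the 48-hour experiment with vehicle (1.37 ± 0.256, edgeR adjusted p = 0.00606) and with MRTX1133 (1.57 ± 0.255, edgeR adjusted p = 0.00376). The first call was lost without 4OHT vehicle replicate 2 (1.25, adjusted p = 0.0508). At 2 weeks Fgf1 was at 79.7 and 73.8 CPM with ethanol and 121.1 and 106.1 CPM with 4OHT, and the 0.57 ± 0.132 difference was not called (edgeR adjusted p = 0.0541). In the human lines FGF1 was barely present. It was at 1.45 and 1.85 CPM in H358 with vehicle and 1.35 and 1.26 CPM with trametinib, and had 0 and 1 counts with vehicle and 0 and 3 with trametinib in H1651.

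Fgf2, the ligand best known as basic FGF, fell with trametinib in 1027B. There it was at 201.4 and 283.2 CPM with vehicle, 40.6 and 108.1 CPM with trametinib and 75.1 and 127.0 CPM with MRTX1133. Both treated groups lay below the vehicle group and were themselves widely spread. Trametinib lowered Fgf2 (-1.71 ± 0.464, edgeR adjusted p = 0.0362), a call lost without vehicle replicate 1 (-1.93, adjusted p = 0.0598) or 2 (-1.42, 0.135) or trametinib replicate 1 (-1.16, 0.102). Without trametinib replicate 2 the Fgf2 call held at -2.58. The MRTX1133 difference of -1.26 ± 0.458 was not called (edgeR adjusted p = 0.162), and was with the replicate block (-1.30, adjusted p = 0.00156, 0.00156 to 0.496 over 11 alternatives). In 3311 Fgf2 was at 6.24 and 9.80 CPM with vehicle and 4.27 and 6.43 CPM with trametinib, with overlapping groups.

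In the 48-hour 3154 organoids Fgf2 was lowest with ethanol alone, at 19.6 and 15.5 CPM, and stood at 34.1 and 32.1 CPM with MRTX1133, 29.0 and 38.7 CPM with 4OHT, and 21.3 and 25.1 CPM with both. Hnf4a deletion with vehicle raised it (0.95 ± 0.191, edgeR adjusted p = 0.00827), a call lost without 4OHT vehicle replicate 2 (0.72, adjusted p = 0.0784). With MRTX1133 the deletion difference was -0.51 ± 0.188 (edgeR adjusted p = 0.0786, not called). MRTX1133 gave 0.92 ± 0.191 with ethanol (edgeR adjusted p = 0.114; DESeq2 0.00875; 0.00875 to 0.62 over 11 alternatives) and -0.54 ± 0.189 with 4OHT (edgeR adjusted p = 0.152; -0.32 without 4OHT vehicle replicate 2).

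The 2 arms thus pointed in opposite directions for Fgf2. The interaction was -1.46 ± 0.268 in log2, with an unadjusted p of 0.000608, and was not called after adjustment over 15458 genes (edgeR adjusted p = 0.541; DESeq2 0.00935; 0.00935 to 1 over 14 alternatives). For 0 of 8 members and 0% of all genes was the interaction called in edgeR, where 2 members and 1150 genes had an unadjusted p under 0.05, and DESeq2 called 1 member, Fgf2, and 30 genes. At 2 weeks Fgf2 was at 33.0 and 26.4 CPM with ethanol and 24.4 and 55.3 CPM with 4OHT, with overlapping groups. H358 had 0 FGF2 counts in all 4 libraries, where 3 counts would be 0.0645 to 0.118 CPM. H1651 held FGF2 at 20.9 and 36.1 CPM with vehicle, 17.9 and 25.95 CPM with trametinib, 25.7 and 29.2 CPM without and 24.95 and 27.15 CPM with doxycycline.

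**Figure D3:**
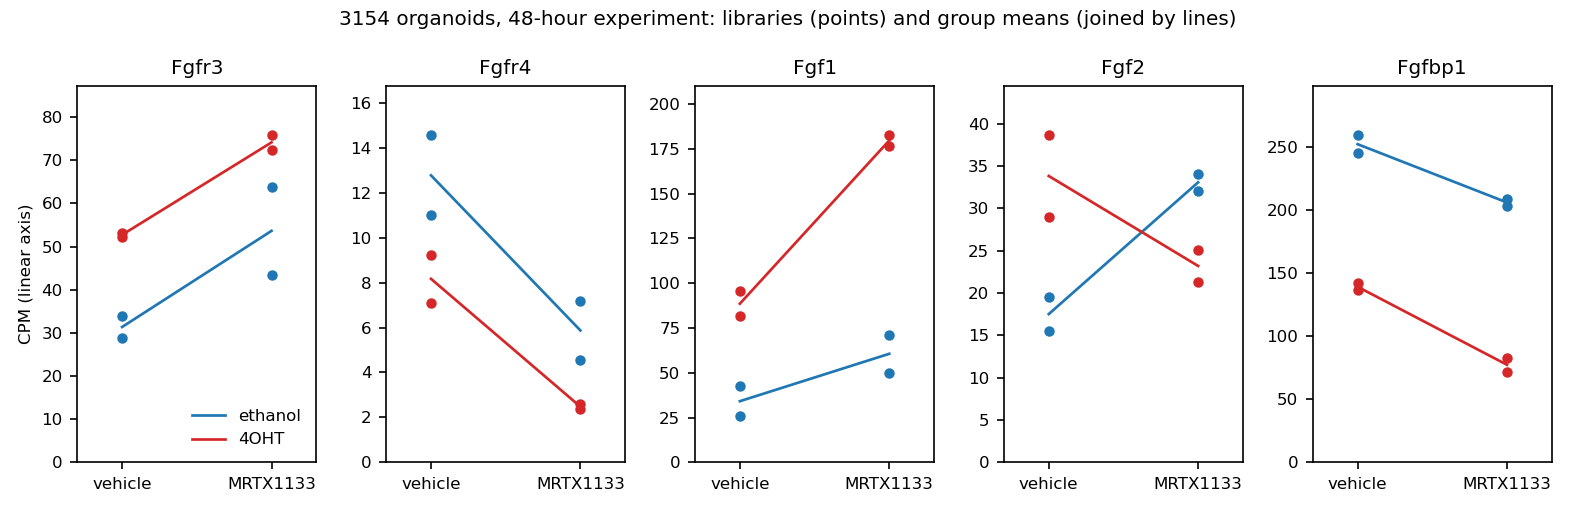
Level of 5 genes (panels; CPM, linear axes from 0) in the 48-hour 3154 organoids with vehicle or MRTX1133, after ethanol (blue) or 4OHT (red); points are libraries and lines join group means. The lines cross for Fgf2 (17.5 to 33.1 CPM with ethanol, 33.8 to 23.2 CPM with 4OHT), and the 4OHT libraries lie above all ethanol libraries of the same treatment for Fgf1 and below them for Fgfbp1.

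Fgfbp1, the carrier that frees FGFs from the matrix, was lower with Hnf4a deletion in each of the 3 deletion comparisons. At 2 weeks it fell from 261.3 and 303.1 CPM to 171.4 and 137.0 CPM (-0.87 ± 0.161, edgeR adjusted p = 0.0303). Endothelial markers (4 of 5 listed) summed to 5.12–6.165 CPM with ethanol and 2.30–2.74 CPM with 4OHT there, and Pecam1, the 1 tested, was called lower (-1.37). Their part in the Fgfbp1 result was not tested. In the 48-hour experiment it stood at 245.1 and 259.4 CPM with ethanol, 208.5 and 203.5 with ethanol and MRTX1133, 142.2 and 136.3 with 4OHT, and 71.9 and 82.9 with both. The 4 groups did not overlap, and the replicates were close. Deletion lowered Fgfbp1 with vehicle (-0.86 ± 0.121, edgeR adjusted p = 0.00205) and with MRTX1133 (-1.41 ± 0.123, edgeR adjusted p = 0.000323). MRTX1133 lowered it with 4OHT (-0.85 ± 0.121, edgeR adjusted p = 0.0185) and gave an uncalled -0.29 ± 0.12 with ethanol (edgeR adjusted p = 0.399).

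The difference between those MRTX1133 responses was -0.56 ± 0.17 and was not called (edgeR adjusted p = 0.572). The 2-week call of Fgfbp1 was lost without 4OHT replicate 1 (-1.04, adjusted p = 0.0688) or 2 (-0.72, 0.128). The MRTX1133 call with 4OHT was lost in all 4 fits that left out 1 of those libraries (adjusted p 0.0837 to 0.228). Both 48-hour deletion calls held without any 1 library. The labels leave the timing of 4OHT relative to MRTX1133 unstated.

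Markers also moved in the 48-hour 3154 groups. Lung lineage markers (6 of 6 listed) summed to 6709–9089 CPM with ethanol, 11180–14080 with ethanol and MRTX1133, 8115–9296 with 4OHT and 12800–17170 with both, so the sum was higher with MRTX1133 in each arm, where it was lower in 1027B. Among the 4OHT groups MRTX1133 raised Sftpc and lowered Sftpb, and among the ethanol groups edgeR called none of the 6. Deletion with vehicle raised Foxa1, Foxa2 and Sftpb, and with MRTX1133 it raised Foxa2. Endothelial markers (2 of 5 listed) summed to 0.336–0.799 CPM with ethanol, 0.965–1.03 with ethanol and MRTX1133, 1.61–1.63 with 4OHT and 1.58–1.63 with both, and Tie1 was called higher in both deletion comparisons. The fibroblast marker Col1a1, the 1 listed, was called higher with deletion in the presence of MRTX1133, at under 1 CPM. The part of these shifts in the 48-hour results of Fgfr3, Fgfr4, Fgf1, Fgf2, Fgfbp1 and Frs3 was not tested.

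FGFBP1 showed the largest change of all members in H358. It fell from 73.2 and 59.5 CPM with vehicle to 1.40 and 1.41 CPM with trametinib, or 2.12% of the vehicle mean (-5.56 ± 0.18, edgeR adjusted p = 1.79e-06). The counts were 2828 and 1994 with vehicle and 65 and 36 with trametinib. Fibroblast markers (8 of 8 listed) summed to 41.2–50.0 CPM with vehicle and 246–348.5 CPM with trametinib, carried by COL1A1 and LUM, and COL1A2, DCN and THY1 were at 0 with vehicle. Epithelial markers summed to 5337–5534 and 3601–3882 CPM. Endothelial markers (5 of 5 listed) summed to 13.5–15.2 and 21.55–21.8 CPM, with CDH5 called higher, and the leukocyte marker PTPRC was called higher at under 1 CPM. Lung lineage markers (5 of 6 listed) summed to 239.7–267.4 and 287.1–296.0 CPM, with FOXA1 and NKX2-1 called higher and FOXA2 lower. The part of these shifts in the H358 results was not tested.

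In 3311 Fgfbp1 fell from 52.2 and 43.3 CPM to 23.6 and 35.0 CPM (-0.70 ± 0.215, edgeR adjusted p = 0.0379), a call lost without vehicle replicate 1 (-0.57, adjusted p = 0.141) or trametinib replicate 1 (-0.45, 0.232). In 1027B it was at 98.4 and 119.7 CPM with vehicle, 64.7 and 79.1 with trametinib and 65.0 and 88.7 with MRTX1133. Both drug groups lay below vehicle, and neither difference was called (-0.60 ± 0.186, edgeR adjusted p = 0.0537; -0.51 ± 0.185, edgeR adjusted p = 0.165). With the replicate block both Fgfbp1 differences were called (-0.60, adjusted p = 0.000444, 0.000444 to 0.257 over 11 alternatives; -0.51, 0.00254, 0.00254 to 0.56). Unblocked, the MRTX1133 difference was -0.30 without MRTX1133 replicate 1 and -0.34 without vehicle replicate 2. H1651 held little FGFBP1: 3.63 and 4.64 CPM with vehicle, 1.63 and 2.92 with trametinib, and 1.57 to 2.16 CPM in the doxycycline experiment.

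Frs2 and Frs3, which link receptors to this cascade, were called in few comparisons. Frs2 was called in 1 of 11 comparisons with a control: in H358 it rose from 32.8 and 37.1 CPM to 62.1 and 63.4 CPM with trametinib (0.84 ± 0.115, edgeR adjusted p = 0.000694). Its lowest log2 difference was -0.34, with Hnf4a deletion in the presence of MRTX1133 (-0.16 and -0.55 without 4OHT with MRTX1133 replicate 1 and 2), and the one after Hnf4a deletion with vehicle was -0.24, was called without ethanol vehicle replicate 2 (-0.64, adjusted p = 0.0405) and turned to 0.31 without replicate 1 (not called). Frs3 was called in 1 of 11, in the 48-hour vehicle groups, where it fell with Hnf4a deletion from 4.42 and 3.57 CPM to 1.97 and 2.10 CPM (-0.97 ± 0.224, edgeR adjusted p = 0.0141). That call rested on 52 and 47 counts with 4OHT and was lost without 4OHT vehicle replicate 1 (-0.93, adjusted p = 0.101) or 2 (-1.02, 0.082). At 2 weeks Frs3 was at 7.09 and 12.1 CPM with ethanol and 3.87 and 6.79 CPM with 4OHT, an uncalled -0.85 ± 0.393 (edgeR adjusted p = 0.22) that was called without ethanol replicate 1 (-1.21, 0.037) and was -0.42, -0.50 and -1.31, not called, without ethanol replicate 2 and 4OHT replicate 1 and 2.

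**Figure D4:**
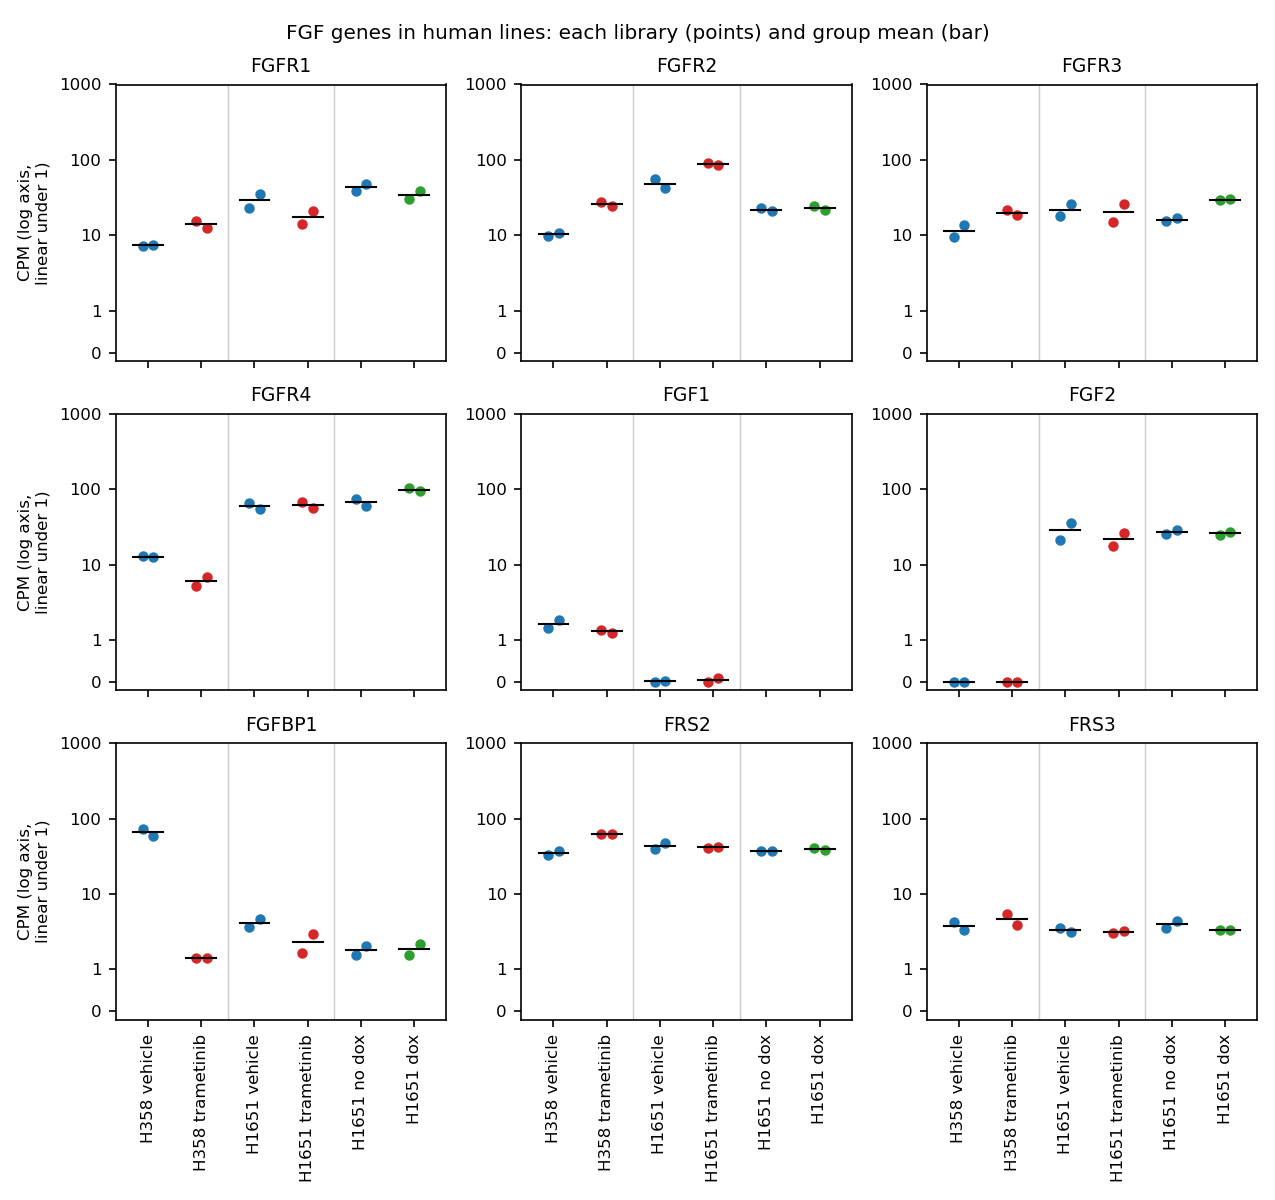
Level of the 9 genes (panels) in each human library (points; CPM on a log axis that is linear under 1) with the mean of the 2 libraries of a group (bar); blue is vehicle or no doxycycline, red is trametinib and green is doxycycline, and grey lines separate tables that were scaled separately. FGFBP1 fell from 66.4 to 1.41 CPM in H358, FGF2 was at 0 in all H358 libraries, and FGF1 had no row in the doxycycline table.

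The 2 human lines had the same trametinib dose and time, so their responses were compared in 1 fit of the 8 libraries. Line and experiment cannot be told apart in it. HNF4A was at 0 CPM in every H358 library and at 33.3–58.9 CPM in H1651, and its part in the differences was not tested. The response differed in 4 of 9 members, 2 higher and 2 lower in H1651, against 19.3% of all genes (9.86% higher, 9.43% lower). The log2 difference of FGFBP1 was -0.86 in H1651 (-1.34 to -0.50 with 1 library left out, without trametinib replicate 2 and 1) and -5.56 in H358 (difference of the 2 responses 4.67 ± 0.38, edgeR adjusted p = 0.000365), and the FGFR4 response was also higher there (1.12 ± 0.219, edgeR adjusted p = 0.00971). The FRS2 response was lower in H1651 (-0.94 ± 0.164, edgeR adjusted p = 0.00597), as was that of FGFR1 (-1.68 ± 0.358, edgeR adjusted p = 0.0133). The FGFR1 difference was lost without H358 vehicle replicate 1 (-1.64, adjusted p = 0.0533) or 2 (-1.70, 0.0525) or H358 trametinib replicate 1 (-1.49, 0.0544). FGFR2 differed by -0.51 ± 0.207 (not called, edgeR adjusted p = 0.122), was called without H1651 vehicle replicate 2 (-0.68, 0.0474) and was -0.30 without replicate 1. FGFR3 differed by -0.92 ± 0.411 (not called, edgeR adjusted p = 0.159) was called without H1651 trametinib replicate 2 (-1.37, 0.0475) and was -0.56 without replicate 1. FGF1 and FGF2, with few or no counts in 1 of the lines, allow no usable estimate of that difference.

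Trametinib and MRTX1133 were set side by side in 1027B, at doses of 10 nM and 20 nM that differ and of compounds with different targets, so the doses are not matched. In edgeR 0 of 8 members and 0% of all genes were called between the drugs, where 3 members and 2357 genes had an unadjusted p under 0.05 and DESeq2 called 3 members and 675 genes. The log2 difference, MRTX1133 minus trametinib, was 1.73 ± 0.355 for Fgfr4 (95% interval 0.85 to 2.60), -0.83 ± 0.157 for Fgf1 and -0.63 ± 0.163 for Fgfr3. With the replicate block 3 of 8 members were called, against 14.1% of all genes (7.75% higher, 6.33% lower): Fgfr4 at 1.72 (adjusted p = 0.00975, 0.00642 to 0.594 over 11 alternatives), Fgf1 at -0.83 (0.00105, 0.000646 to 0.574) and Fgfr3 at -0.63 (0.0207, 0.0207 to 0.671).

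Other genes of FGF signalling were taken from lists of known pathway members. Their counts and tests, and the shares of all genes beside them, come from the fits without a replicate block. Among the 14 targets and feedback genes, which report ERK activity, trametinib lowered 13 of 14 tested in 3311 and in H358 and 9 of 12 in 1027B, and raised none in edgeR, where 19.6%, 23.2% and 13.2% of all genes were called lower. MRTX1133 lowered 4 of 12 in 1027B and 4 of 14 in 3154 with 4OHT, where 3.26% and 2.54% of all genes were called lower, and with ethanol the list's median log2 difference was -0.075 with none called in edgeR. The ETS factor Etv4 fell from 113.6 ± 2.21 to 1.43 ± 0.452 CPM in 3311, from 54.0 ± 4.09 to 4.58 ± 1.44 CPM in 1027B with trametinib and to 21.2 ± 2.28 CPM with MRTX1133. DUSP6, an ERK phosphatase, fell in H358 from 167.6 ± 13.2 to 0.931 ± 0.405 CPM. In H1651 the list's median log2 difference with trametinib was -0.75, with none of the 14 called in edgeR, beside -0.0027 over all genes. DUSP6, named here after its values were seen, stood at 50.8 ± 1.41 CPM with vehicle and 6.37 ± 1.55 CPM with trametinib in H1651 (-3.00 ± 0.189, edgeR adjusted p = 0.149, the lowest of that table).

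Of the co-receptors and FGF-binding proteins, trametinib raised 3 and lowered 0 of 15 tested in 3311, where 19.4% of all genes were called higher and 19.6% lower. It raised 4 and lowered 1 of 12 in 1027B (13.5% and 13.2% of all genes) and raised 7 and lowered 2 of 13 in H358 (23.5% and 23.2%). The median log2 change of this list was 0.385 in 3311, 0.388 in 1027B and 0.834 in H358, beside 0.0081, -0.012 and 0.015 over all genes. Flrt3, a membrane protein that binds FGF receptors, rose from 24.8 ± 3.88 to 135.2 ± 40.7 CPM in 3311 and from 71.8 ± 1.80 to 212.3 ± 9.12 CPM in 1027B. MRTX1133 raised it to 147.4 ± 4.90 CPM in 1027B. Hnf4a deletion raised 5 of 10 tested co-receptors and lowered 0 in the 48-hour vehicle groups, where 15.3% of all genes were called higher, among them Flrt3 from 41.55 ± 7.59 to 127.8 ± 3.71 CPM and the glypican Gpc1 from 3.13 ± 1.27 to 16.5 ± 2.77 CPM, and at 2 weeks 2 of 12 against 4.03% of all genes, with Gpc1 going from 5.69 ± 0.0238 to 53.0 ± 13.8 CPM.

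Most other FGF ligands had no row or too few counts: of 21, between 4 and 8 were tested in a single table. Fgf18, an epithelial and mesenchymal ligand of lung, rose with Hnf4a deletion at 2 weeks from 0.857 ± 0.186 to 3.28 ± 0.559 CPM and in both 48-hour comparisons. Fgf21, a hepatic hormone, fell with deletion from 2.61 ± 0.718 CPM to 0 counts in both 4OHT vehicle libraries. FGF19, the ligand of FGFR4, fell with trametinib in H358 from 6.99 ± 5.58 to 0.323 ± 0.153 CPM, with widely spread vehicle libraries. Of 8 such ligands tested there 3 were called higher and 1 lower, where 23.5% and 23.2% of all genes were. In 3311 trametinib raised 1 and lowered 2 of 6, where 19.4% and 19.6% of all genes were called higher and lower. Of the 4 splicing regulators that choose between receptor isoforms, Ptbp1 fell with trametinib in 3311, 1027B and H358, from 590.2 ± 52.5 to 408.7 ± 0.354 CPM in the first. ESRP1 fell and ESRP2 rose in H358, and the gene counts do not separate receptor isoforms.

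Of the heparan sulfate enzymes, Ndst1, which starts sulfation of the chains that hold FGFs, rose with trametinib in 3311 from 42.2 ± 1.27 to 194.9 ± 74.1 CPM and in 1027B from 134.9 ± 36.0 to 363.9 ± 30.8 CPM, and NDST1 in H358 from 90.7 ± 9.50 to 342.4 ± 59.5 CPM. The sulfotransferase Hs3st1 fell in 3311 and in 1027B with both drugs. In all, trametinib raised 2 and lowered 1 of 10 such genes in 3311, raised 4 and lowered 3 of 10 in 1027B, and raised 4 and lowered 2 of 11 in H358. Called in either direction these are 3 of 10, 7 of 10 and 6 of 11, where 39.0%, 26.7% and 46.8% of all genes were called. Of 12 signalling adaptors, which include Grb2, Sos and Shc genes, it raised 2 and lowered 4 in 3311, raised 2 and lowered 2 in 1027B, and raised 5 and lowered 2 in H358, or 6, 4 and 7 of 12 against the same shares of all genes. GAB1, a scaffold of the FRS2 complex, rose in H358 from 21.5 ± 3.47 to 42.7 ± 1.42 CPM.

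As a description, the mouse genes whose log2 CPM, centred within each table, followed the receptors most closely were named over the 22 mouse libraries and 12598 genes. For Fgfr2 they were Foxp2 (r = 0.922), Ctdspl (0.919) and Dhrs3 (0.917). For Fgfr3 they were Pde7a (0.911), Coro2b (0.908) and Amer1 (0.906), and for Fgfr4 Mpzl3 (0.925), Atp2a2 (0.916) and Slc35d1 (0.915). Among the members themselves Fgfr3 ran against Fgfr4 (r = -0.849) and with Fgf1 (0.743), while Fgfr4 ran against Fgf1 (-0.775). The 22 libraries share tables, cultures and treatments and are not independent, so no test is given. Fgfr1, with a row in 1 mouse table, could not be included.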

How the data were processed

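The deposited tables hold raw counts per gene for 34 libraries in 7 tables, as the authors deposited them, made from poly(A) RNA with a strand-keeping kit per the labels' protocols. Trimming with cutadapt 3.5, alignment with STAR 2.7.6a and counting with featureCounts 1.6.3 are named in the submitters' processing notes, with the builds mm10, mm39 and hg38; which build belongs to which mouse table, and the strand setting, are not given in the sources used here. Total counts per library were 19692517 to 45284286.

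Each table was fitted separately with the quasi-likelihood test of edgeR 4.0.16 (R 4.3.3), with the tool's default filter on low counts and TMM factors; p-values were adjusted by Benjamini-Hochberg over all genes of the table, and a call is an adjusted p under 0.05. Levels are TMM-scaled CPM, computed from the counts, and comparable only within a table. Standard errors were derived from the F statistic. The response of H1651 minus that of H358 was fitted on the 8 libraries of both tables together. Alternatives were DESeq2 1.42.0, other scaling factors, other filters (none, or 10 counts in every library), only the groups compared, a replicate block, and leaving out each library. The procedure was tested on simulated data.

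Same-numbered replicates of 1027B deviated together (correlations of deviations 0.243, 0.372 and 0.414 over 3 pairs of groups), so the numbers were taken to pair them. Blocked values stand beside the 1027B results of the members where they change a call. Pathway lists and markers were counted only in the fits without a block. Exon lengths came from GENCODE M21 (GRCm38) and upstream sequences from RefSeq (GRCm38.p6); no human reference was used here. Named genes are all 9 members and, of each pathway list, up to 3 called genes with the largest log2 change and at least 1 CPM in the higher group. The members and lists were chosen with earlier results of these data known. One allele that the mouse cultures share is not reported here.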

Additional observations from a re-analysis of the deposited data

Results flagged for a closer look

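The trametinib response differed between the human lines H1651 and H358 for 4 of the genes, by a test of the difference itself in 1 fit of both lines, where 19.3% of all genes were called. The FGFR1 call was lost in 3 of 8 fits that left out 1 library. The difference of log2 changes, H1651 minus H358, was 4.67 for FGFBP1, 1.12 for FGFR4, -1.68 for FGFR1 and -0.94 for FRS2.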

How the results depend on the processing

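No called gene value turned its direction, 44 uncalled values did so with 1 library left out and 3 under other settings, and none of 732 values under settings other than leaving out a library lost its call, while 43 gained one. Of 520 values with 1 library left out, 37 lost and 11 gained a call. The number of members called rose with DESeq2 from 0 to 3 between MRTX1133 and trametinib in 1027B, from 0 to 1 for trametinib in H1651, from 1 to 2 for doxycycline, from 1 to 3 for Hnf4a deletion at 2 weeks, from 0 to 3 for MRTX1133 with ethanol and from 0 to 1 for the interaction. It was 2 for doxycycline with no filter, 2 at 2 weeks with upper-quartile factors, and 6 for MRTX1133 with 4OHT when only those 2 groups were fitted. With 1 library left out the members called were 2 to 4 for trametinib in 3311, 3 to 4 in 1027B, 5 to 6 in H358 and 0 to 2 in H1651. They were 1 to 2 for MRTX1133 in 1027B, 0 in each fit for MRTX1133 against trametinib, 1 to 2 for doxycycline, 0 to 3 at 2 weeks, 0 in each fit for MRTX1133 with ethanol and with 4OHT, 1 to 6 for deletion with vehicle, 2 to 3 for deletion with MRTX1133, 0 in each fit for the interaction and 3 to 5 for the comparison of H1651 with H358. The cause was not tested, beyond the fewer samples of each such fit.

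With the replicate block the members called were 5 for MRTX1133 in 1027B, 3 for MRTX1133 against trametinib, 4 for trametinib in H1651, 3 for doxycycline and 4 for deletion at 2 weeks. Outside 1027B the numbers were not taken to pair the samples, though no label sets 1027B apart. The correlations of deviations were 0.126 in 3311, 0.318 in H358, 0.623 and 0.318 in H1651 with trametinib and doxycycline, 0.427 at 2 weeks and -0.251 to 0.549 among the 48-hour 3154 groups. Those of H1651 with trametinib, at 2 weeks and the highest among the 48-hour groups exceeded those of 1027B (0.243, 0.372 and 0.414). The unblocked results there may thus leave out a pairing.

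Over all genes the calls moved by more than 1.5 times from 1421 to 2337 (DESeq2) and 4563 (replicate block) at 2 weeks, from 247 to 441 and 3048 for doxycycline, from 913 to 1593 and 3515 for MRTX1133 in 1027B, and from 0 to 675 and 2050 between the drugs, where fitting the 2 groups alone gave 1. Trametinib in H1651 went from 0 to 47 (DESeq2), 1881 (block) and 2 (no filter), and in 1027B from 3880 to 6540 (block). MRTX1133 with 4OHT went from 717 to 1291 (DESeq2) and 3932 (2 groups), and with ethanol from 54 to 319 and 0. Deletion with vehicle went from 4795 to 3154 (2 groups), the H1651 and H358 comparison from 4087 to 8472 (block) and the interaction from 0 to 30 (DESeq2). With 1 library left out the genes called ranged from 1336 to 2754 for trametinib in 1027B (lowest without trametinib replicate 1), 3772 to 6298 in 3311 (without trametinib replicate 1), 6682 to 9265 in H358 and 0 to 193 in H1651 (highest without vehicle replicate 1). They ranged from 138 to 349 for MRTX1133 in 1027B, 0 to 2 between the drugs, 0 to 23 for MRTX1133 with 4OHT, 0 to 309 with ethanol, 395 to 2790 for deletion at 2 weeks, 1668 to 5964 with vehicle, 1745 to 2805 with MRTX1133, 232 to 412 for doxycycline and 2177 to 3667 for H1651 against H358, and were 0 in each fit of the interaction. The shares of all genes given beside the members rest on these counts. Upper-quartile factors moved the median log2 change of all genes at 2 weeks from 0.019 to 0.111. With 2 libraries a group, and members at a few counts in some groups, small changes may have been missed, and the power to detect them was not measured.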
